A study of Mus musculus with 6 samples.

Results

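The genes described here are 10 negative-feedback and output genes of ERK signalling: the MAP kinase phosphatases Dusp1, Dusp4, Dusp5 and Dusp6, the Ras pathway inhibitors Spry1, Spry2, Spry4 and Spred1, and the ETS transcription factors Etv4 and Etv5. They were chosen by gene symbol, and all 10 were found by Ensembl identifier among 22246 genes with a deposited FPKM value (fragments per kilobase of a gene's length, adjusted to the library's depth). All 10 also had a mean of at least 1 FPKM, which placed them among the 11325 genes tested. RNA sequencing libraries came from cells labelled HL-1 (strain C57BL/6, tissue heart), the name of an established mouse cell line of atrial heart muscle origin, although markers of that cell type were largely absent here (values below). A group of 3 libraries carried a control short hairpin RNA (shRNA), and a group of 3 carried an shRNA against Smyd4, a gene of the SET and MYND domain methyltransferase family. All 6 libraries thus came from cells given an shRNA. The mode and duration of shRNA delivery, and whether cells were a clone or a pool, are details not given in the sources used here. Also unstated in the labels is whether replicates were separate cultures. The p-values below therefore measure the spread between these samples alone, and that spread may be technical.

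The ERK pathway carries signals from growth factor receptors through Ras, Raf and MEK to the kinase ERK, which enters the nucleus and changes transcription. Among the genes it induces are its own inhibitors. Dual-specificity phosphatases remove the activating phosphates from MAP kinases, and Sprouty and SPRED proteins act upstream at the level of the receptor, Ras and Raf. Etv4 and Etv5 belong to the PEA3 group of ETS factors and are classical transcriptional outputs of fibroblast growth factor and ERK signalling, restrained by the repressor Cic. The mRNA levels of such genes are often read as a record of ERK activity, and in heart muscle the pathway is known for its role in growth.

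The libraries held between 20755856 and 26387606 reads in genes. Smyd4 mRNA averaged 12.9 ± 0.539 FPKM under the control shRNA and 12.3 ± 0.348 FPKM under the other (SD, n = 3 each), with overlapping ranges (exact two-sided permutation test, p = 0.2; the smallest p this design allows is 0.1). The target's mRNA was not lower beyond the replicate spread. The second group is therefore called the libraries labelled Smyd4 shRNA, and every direction below refers to that label. Of 13 cardiomyocyte markers, 12 were in the table and 4 reached a mean of 1 FPKM (Nppb, Tnnt2, Nkx2-5 and Gata4), while Myh6, Actc1, Ryr2, Tbx5 and Gja5 stayed under 0.1 FPKM in every library. The atrial light chain gene Myl7 was listed at 0 in all controls and averaged 0.0720 FPKM in the other group. These values go against the labelled cell type, and the label is kept here only as a name. The summed level of the cardiomyocyte list was 20.51 to 22.2 FPKM in the controls and 28.4 to 30.2 FPKM in the libraries labelled Smyd4 shRNA. Its expressed members did not move together: Tnnt2 rose from 7.11 to 11.7 FPKM, Nkx2-5 from 3.57 to 7.68 FPKM and Gata4 from 8.09 to 8.88 FPKM, while Nppb fell from 2.15 to 0.484 FPKM (limma, adjusted p from 6.2e-06 to 0.0314). Markers of other cell types also differed between the groups. The 5 skeletal muscle markers summed to 38.6 to 40.5 FPKM in the controls and 10.8 to 12.2 FPKM in the labelled ones, with Myod1, the skeletal muscle master regulator, at 18.8 and 5.31 FPKM. The 4 smooth muscle markers summed to 301 to 315 and 197 to 205 FPKM, and the 7 fibroblast markers to 239 to 246 and 270 to 282 FPKM. Within the fibroblast list Col1a1 (37.6 and 69.3 FPKM) and Col1a2 (60.5 and 84.9 FPKM) rose, whereas Dcn fell from 26.3 to 1.72 FPKM and Pdgfra from 4.35 to 2.94 FPKM (limma, adjusted p from 9.2e-08 to 0.00014). Endothelial markers summed to at most 0.655 FPKM in any library and the macrophage list to at most 2.15 FPKM, with Ptprc and Adgre1 under 0.1 FPKM throughout. The part of these marker differences in the results on the feedback genes was not tested, and in such bulk samples fewer cells of a type and less RNA per cell cannot be told apart.

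The feedback genes did not move as 1 block. Compared with the control libraries, Spry2, Dusp1, Etv4 and Dusp5 fell by between 35.8% (Dusp5) and 53.9% (Spry2) in the libraries labelled Smyd4 shRNA, while Dusp4 and Dusp6, the most abundant of the 10, rose by 24.1% and 13.3%. Spry1 was 13.1% higher, a call that several alternatives lost, and Spry4, Spred1 and Etv5 did not pass the test. In all, 3 members were called higher and 4 lower, 7 of 10, where 48.3% of all tested genes were called (25.1% higher and 23.3% lower; limma on log2(FPKM + 0.5), Benjamini-Hochberg adjusted p under 0.05 over all 11325 genes). The values of the 2 groups did not overlap for the same number of members, 7 of 10, against 57.8% of all tested genes. The members' median log2 difference was -0.03, beside 0.02 over all tested genes, with members ranging from -1.08 to 0.31.

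**Figure D1:**
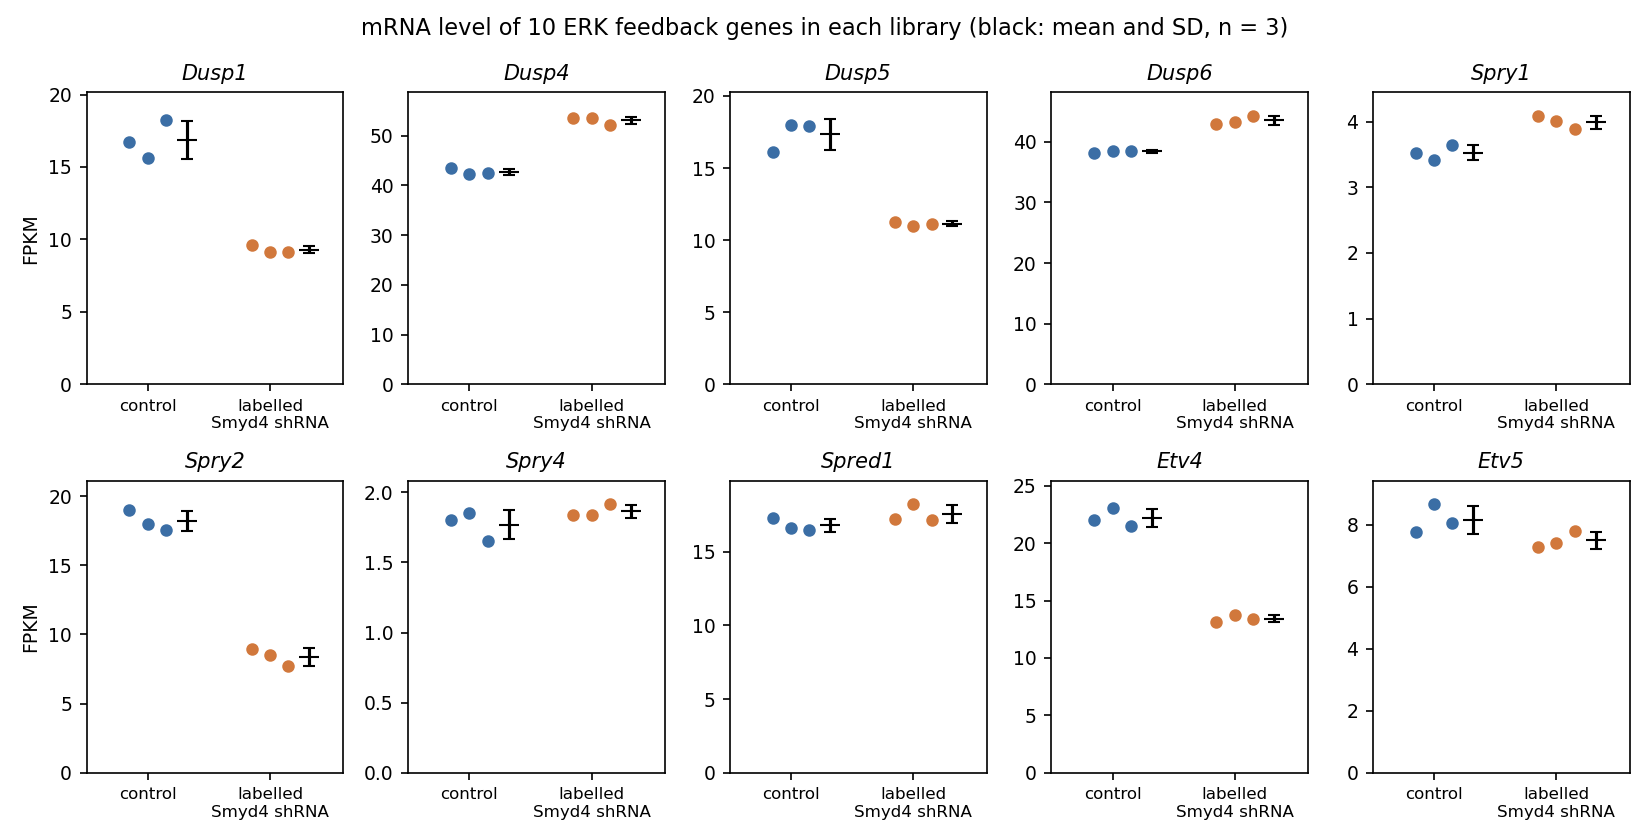
Level of each feedback gene in FPKM (vertical axis, from 0, scaled per gene) in the 3 control libraries (blue) and the 3 libraries labelled Smyd4 shRNA (orange), with mean and SD in black. The groups are separate for 7 genes and overlap for Spry4, Spred1 and Etv5.

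Start-site sequence is shown for the 4 genes whose windows held a short motif of factors known to act on this gene class. All 4 passed the test, as did Spry1, whose window held no match. RefSeq start-site windows (GRCm38.p6, 250 bases before to 50 after the start, 300 in all) matched 7 of the 10 members by symbol. Dusp4, Etv4 and Spry4 had no window and were not searched, so nothing is known here of their motifs. Each was searched on both strands for the cyclic AMP response element TGACGTCA, for the Cic octamers TGAATGAA, TGAATGGA, TCAATGAA and TCAATGGA, for the AP-1 site TGANTCA, for the ETS core CCGGAA and for the CArG box, the binding motif of serum response factor. The lines give 250 bases before and 20 after the start, 5′ to 3′ in the direction of the gene, with motif matches in capitals. They cover chr17:26508453-26508722 (minus strand) for Dusp1, chr19:53528895-53529164 (plus strand) for Dusp5, chr10:99262981-99263250 (plus strand) for Dusp6 and chr14:105896800-105897069 (minus strand) for Spry2.
Dusp1: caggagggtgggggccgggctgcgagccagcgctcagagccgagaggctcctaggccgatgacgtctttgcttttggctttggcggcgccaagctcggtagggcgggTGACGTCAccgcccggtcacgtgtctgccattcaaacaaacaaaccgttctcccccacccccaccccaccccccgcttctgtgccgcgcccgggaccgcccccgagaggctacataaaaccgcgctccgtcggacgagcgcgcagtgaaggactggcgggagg
Dusp5: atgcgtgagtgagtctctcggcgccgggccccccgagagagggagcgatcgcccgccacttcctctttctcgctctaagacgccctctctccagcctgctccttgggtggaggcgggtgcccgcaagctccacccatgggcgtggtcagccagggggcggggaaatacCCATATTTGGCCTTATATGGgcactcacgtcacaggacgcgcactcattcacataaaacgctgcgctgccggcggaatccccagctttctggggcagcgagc
Dusp6: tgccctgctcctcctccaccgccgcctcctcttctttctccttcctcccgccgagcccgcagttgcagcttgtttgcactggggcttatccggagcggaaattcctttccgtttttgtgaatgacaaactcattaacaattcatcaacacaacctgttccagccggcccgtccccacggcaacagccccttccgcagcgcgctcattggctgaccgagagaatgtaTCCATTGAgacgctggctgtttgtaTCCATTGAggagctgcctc
Spry2: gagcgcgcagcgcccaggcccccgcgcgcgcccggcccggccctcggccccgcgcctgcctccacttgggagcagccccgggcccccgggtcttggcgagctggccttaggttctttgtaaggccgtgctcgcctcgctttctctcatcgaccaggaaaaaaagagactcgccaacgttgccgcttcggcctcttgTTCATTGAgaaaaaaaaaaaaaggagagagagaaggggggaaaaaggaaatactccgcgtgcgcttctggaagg

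The Dusp1 window held 1 cyclic AMP response element, 143 bases before the start, a motif found in 1.79% of 32817 windows of that length. The Dusp5 window held 2 adjacent CArG boxes, 82 and 72 bases before the start, where 1.63% of windows held any. The Dusp6 window held 2 Cic octamers on the opposite strand, 24 bases before and 1 base after the start, and the Spry2 window held 1, 54 bases before the start, against 3.84% of windows with at least 1. Spry2 also had an ETS core 33 bases after the start, beyond the printed stretch (14.9% of windows held it). No AP-1 site lay in any member's window (7.81% of windows held one), and the windows of Spry1, Spred1 and Etv5 held none of the 5 motifs. Dusp6 and Spry2, which share the Cic octamer, differed in direction. These matches describe letters and carry no information on binding in these cells.

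Among the phosphatases, the nuclear enzymes Dusp1 and Dusp5 fell. Dusp1 (ENSMUSG00000024190; GRCm38 chromosome 17, 26505590 to 26508519, minus strand), which encodes an inducible phosphatase of p38, JNK and ERK, held 16.7, 15.6 and 18.2 FPKM in the controls and 9.59, 9.14 and 9.15 FPKM in the libraries labelled Smyd4 shRNA. Every control library was above every labelled one. The mean was 1.81-fold lower, 16.9 ± 1.30 against 9.29 ± 0.258 FPKM (SD, n = 3), a log2 difference of -0.82 (standard error 0.05; limma, adjusted p = 1.0e-05). Dusp5 (ENSMUSG00000034765; chromosome 19, 53529109 to 53542431, plus strand), whose product acts on ERK and anchors it in the nucleus, held 16.1, 18.0 and 17.9 FPKM in the controls and 11.3, 10.96 and 11.2 FPKM in the labelled ones. Again the groups were separate. Its mean was 1.56-fold lower, 17.3 ± 1.06 against 11.1 ± 0.161 FPKM (SD, n = 3), with a log2 difference of -0.62 (standard error 0.05; limma, adjusted p = 1.9e-05).

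Dusp4 and Dusp6 went the other way. Dusp4 (ENSMUSG00000031530; chromosome 8, 34807297 to 34819894, plus strand), a nuclear phosphatase of the same inducible class as Dusp1, held 43.4, 42.4 and 42.5 FPKM in the controls and 53.6, 53.5 and 52.2 FPKM in the libraries labelled Smyd4 shRNA. All labelled libraries were above all control libraries. The log2 difference was 0.31 (standard error 0.02; limma, adjusted p = 3.1e-05). Dusp6 (ENSMUSG00000019960; chromosome 10, 99263231 to 99267488, plus strand), the cytoplasmic phosphatase specific for ERK and a much-used reporter of pathway output, held 38.2, 38.5 and 38.5 FPKM in the controls and 42.9, 43.3 and 44.3 FPKM in the labelled ones. The rise was small but clear of the replicate spread, with a log2 difference of 0.18 (standard error 0.02, 95% confidence interval from 0.12 to 0.24) and limma's adjusted p at 0.00062. Dusp6 rested on 2553 to 3134 reads per library and Dusp4 on 2750 to 3835. In size the Dusp6 difference was unremarkable for these data, since 38.8% of tested genes had a larger absolute log2 difference, against 18.7% for Dusp4, 6.64% for Dusp5 and 3.75% for Dusp1.

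**Figure D2:**
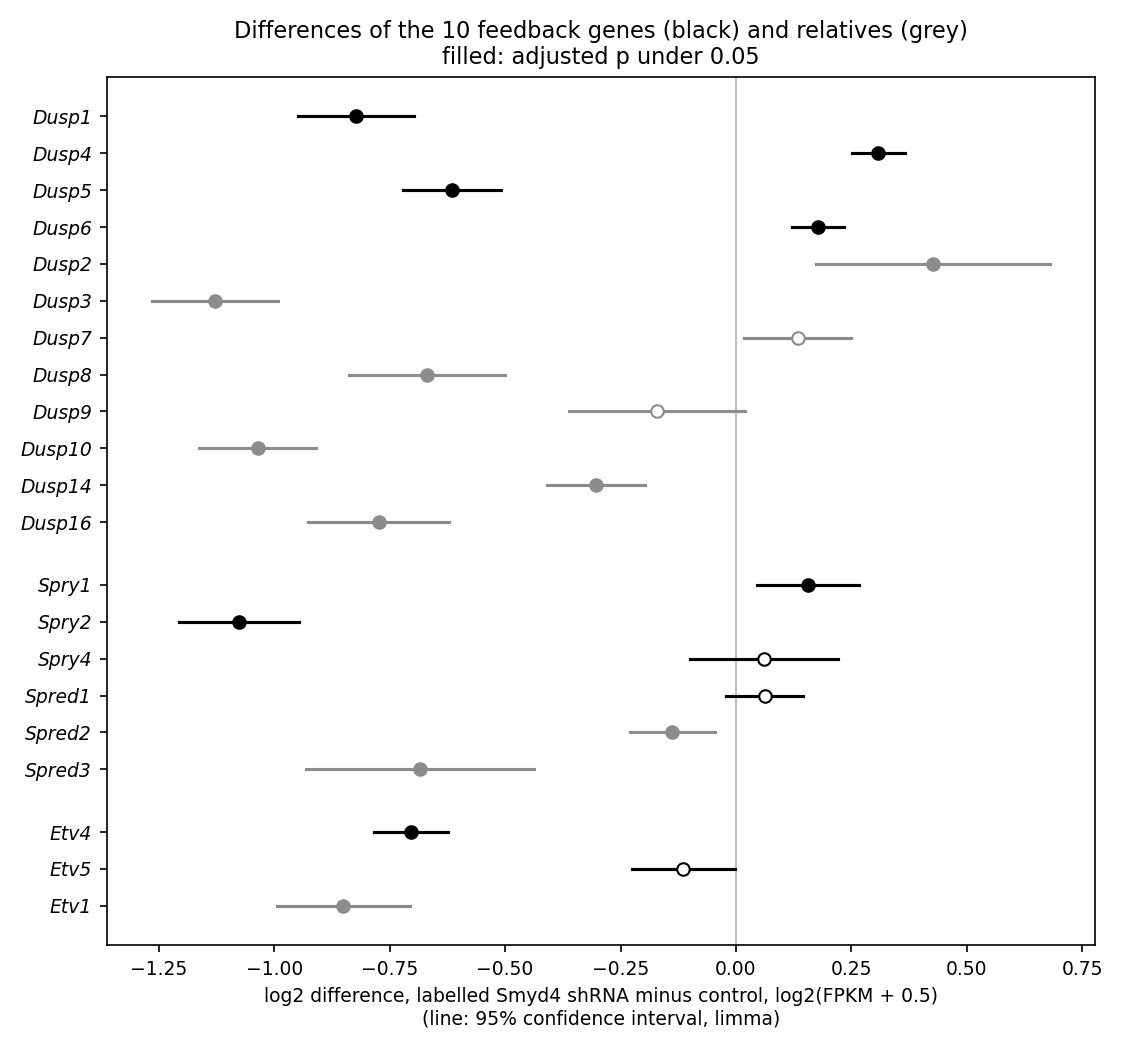
Log2 difference on the log2(FPKM + 0.5) scale, libraries labelled Smyd4 shRNA minus control, for the 10 feedback genes (black) and related genes (grey); lines are 95% confidence intervals from limma and filled points have an adjusted p under 0.05. Phosphatase genes lie on both sides of 0, and the 3 ETS genes shown lie to its left. Etv1, of the same PEA3 group, is the only ETS relative drawn. The 11 other ETS genes tested ran from -0.85 (Etv1) to 0.07, with a median of -0.02.

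The summed level of the 4 member phosphatases moved little while its make-up changed. The 8 other MAP kinase phosphatase genes, with a median log2 difference of -0.49 (values below), are not part of this sum. The 4 genes together gave 114, 115 and 117 FPKM in the controls and 117 FPKM in each of the 3 libraries labelled Smyd4 shRNA, so the ranges overlapped. Dusp4 and Dusp6 together made up 69.2% to 71.3% of that sum in the control libraries and 82.2% to 82.8% in the labelled ones. Dusp1 went from 13.6% to 15.6% of the sum down to 7.82% to 8.18%, and Dusp5 from 14.1% to 15.7% down to 9.37% to 9.61%. Ratios within a library do not depend on how the libraries were scaled. There the ratio of Dusp4 to Dusp1 was 2.33 to 2.71 in the control libraries and 5.58 to 5.85 in the labelled ones, and that of Dusp6 to Dusp5 was 2.14 to 2.37 and 3.80 to 3.98.

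Of the 4 Sprouty and SPRED genes among the members, Spry2 was the only one called lower. Outside the members, Spred2 and Spred3 were called lower too (values below). Spry2 (ENSMUSG00000022114; chromosome 14, 105891949 to 105896819, minus strand), an inhibitor of Ras activation downstream of growth factor receptors, held 19.0, 18.0 and 17.6 FPKM in the controls and 8.96, 8.48 and 7.69 FPKM in the libraries labelled Smyd4 shRNA. Every control library was far above every labelled one. Spry2 had the largest difference of the 10 genes, a 2.17-fold lower mean with a log2 difference of -1.08 (standard error 0.06; limma, adjusted p = 2.7e-06), and 2.40% of tested genes had a larger one.

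Spry1 (ENSMUSG00000037211; chromosome 3, 37639947 to 37644598, plus strand), a close paralog of Spry2, held 3.52, 3.41 and 3.65 FPKM in the controls and 4.08, 4.003 and 3.89 FPKM in the labelled ones. The groups did not overlap, but the gap was narrow and rested on 234 to 310 reads per library. The log2 difference was 0.16 (standard error 0.05; limma, adjusted p = 0.027). That call was lost in limma without control replicate 1 (adjusted p = 0.0696) or 2 (0.0876), without labelled replicate 1 (0.0792) or 2 (0.0671) and without a filter on low values (0.0580), in edgeR (0.0798) and in DESeq2 (0.278); over 15 alternatives its adjusted p ran from 0.00897 to 0.278. Spry1 overlaps the gene model Gm42922 on the opposite strand, and the strand setting of the read counting was not stated in the labels.

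Spry4 (ENSMUSG00000024427; chromosome 18), the family member with the lowest level, held 1.80, 1.85 and 1.65 FPKM in the controls and 1.84, 1.84 and 1.92 FPKM in the libraries labelled Smyd4 shRNA. Its recovered reads were 182 to 220 per library. Its counting length was unknown, so these are the smallest whole numbers that fit, and the true reads may be more. The ranges overlapped, and the log2 difference of 0.06 had a 95% confidence interval from -0.10 to 0.22 (limma, adjusted p = 0.506). That interval spans changes from -6.70% to 16.5% in FPKM + 0.5, the scale of the test. At a level this low the matching limits in FPKM itself are wider. A change within those limits could not be told from none here. Spred1 (ENSMUSG00000027351; chromosome 2, 117121374 to 117182279, plus strand), which brings the Ras-inactivating protein neurofibromin to the membrane, held 17.3, 16.6 and 16.5 FPKM in the controls and 17.2, 18.3 and 17.2 FPKM in the labelled ones. Its ranges overlapped too, with a log2 difference of 0.06 (95% confidence interval from -0.02 to 0.15; limma, adjusted p = 0.194), on 2412 to 3129 reads.

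The summed level of the 4 genes went from 39.3 to 41.6 FPKM in the control libraries to 30.7 to 32.6 FPKM in the libraries labelled Smyd4 shRNA. Spry2 supplied 44.7% to 45.6% of that sum in the control libraries and 25.1% to 27.9% in the labelled ones, while Spred1 supplied 41.6% to 41.8% and 53.6% to 56.0%. Spry2 stood slightly above Spred1 in the control libraries, with a ratio of 1.07 to 1.10, and well below it in the labelled ones, with a ratio of 0.448 to 0.521.

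**Figure D3:**
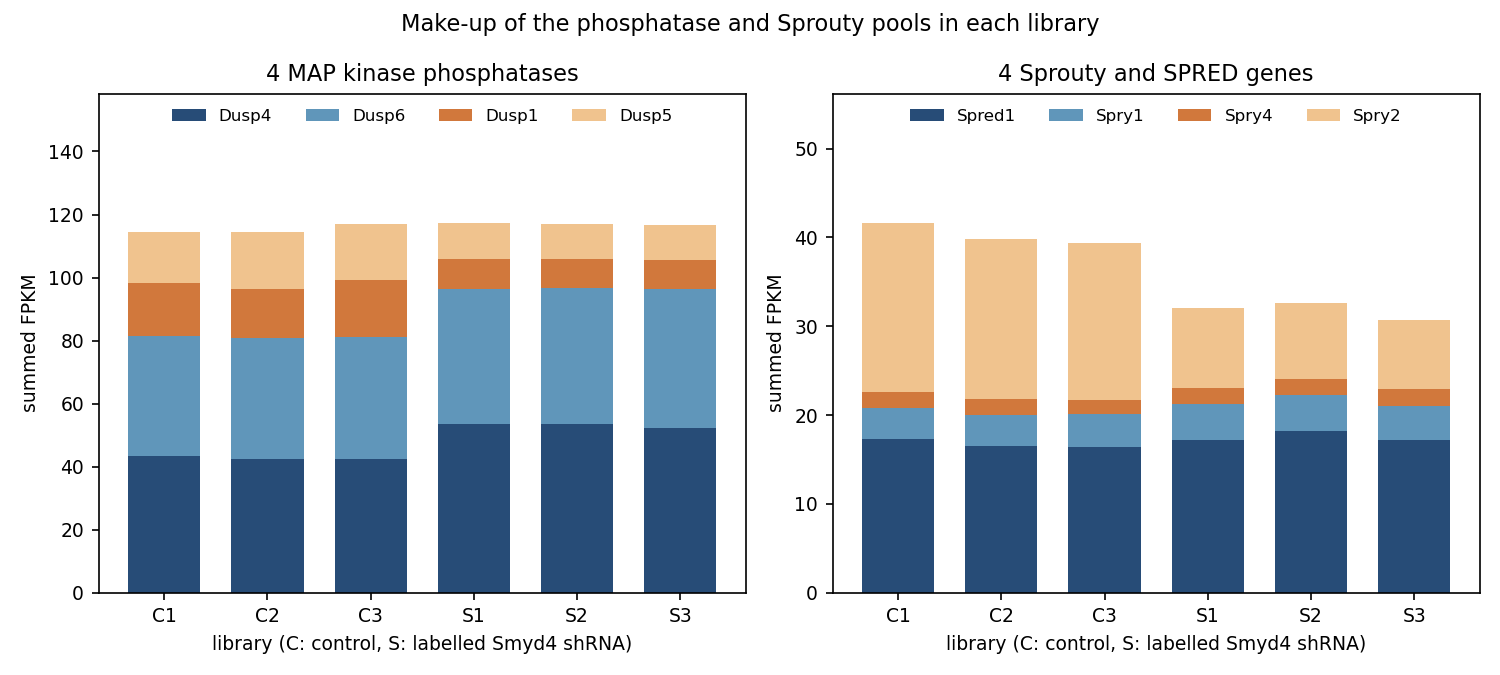
Summed FPKM (vertical axis, from 0) of the 4 phosphatase genes (left) and the 4 Sprouty and SPRED genes (right) in each of the 3 control (C) and 3 labelled Smyd4 shRNA (S) libraries, stacked by gene. The phosphatase bars have like heights, at 114 to 117 FPKM, with a larger Dusp4 and Dusp6 part in the labelled libraries, and the Sprouty and SPRED bars are lower there, with a smaller Spry2 part.

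The ETS factor genes Etv4 and Etv5, paralogs often induced together by fibroblast growth factors, differed in how far they moved. Etv4 (ENSMUSG00000017724; chromosome 11, 101769742 to 101785371, minus strand) held 22.01, 23.1 and 21.5 FPKM in the controls and 13.2, 13.7 and 13.4 FPKM in the libraries labelled Smyd4 shRNA. The groups were separate by a wide margin, with a 1.65-fold lower mean, a log2 difference of -0.70 (standard error 0.03; limma, adjusted p = 1.9e-06). Etv5 (ENSMUSG00000013089; chromosome 16, 22381309 to 22439719, minus strand) held 7.77, 8.66 and 8.05 FPKM in the controls and 7.28, 7.42 and 7.80 FPKM in the labelled ones. The highest labelled library was just above the lowest control library. The log2 difference of -0.11 had a standard error of 0.05 and did not pass in limma (adjusted p = 0.0868), while edgeR on whole reads, which called 49.5% of all genes it tested, placed it just past the threshold (log2 difference -0.13, adjusted p = 0.0421). The ratio of Etv4 to Etv5 within a library was 2.66 to 2.83 in the control group and 1.72 to 1.85 in the labelled group.

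FPKM is per unit of gene length, so levels can be ordered between genes as a description. The replicate spread does not measure an error in a gene's counting length, and the authors' annotation was not given. In the control libraries the order from the top was Dusp4 (42.8 ± 0.588 FPKM), Dusp6 (38.4 ± 0.210), Etv4 (22.2 ± 0.797), Spry2 (18.2 ± 0.736), Dusp5 (17.3 ± 1.06), Dusp1 (16.9 ± 1.30), Spred1 (16.8 ± 0.459), Etv5 (8.16 ± 0.454), Spry1 (3.53 ± 0.119) and Spry4 (1.77 ± 0.104; SD, n = 3 throughout). From Spry2 to Spred1 each gene's range overlapped that of the next, so those neighbours did not differ beyond their spread, though Spry2 and Spred1 themselves did not overlap. Every other pair of neighbours was separate. In the libraries labelled Smyd4 shRNA Spred1 (17.5 ± 0.620 FPKM) rose to the place behind Dusp6, ahead of Etv4 (13.4 ± 0.276), Dusp5 (11.1 ± 0.161), Dusp1 (9.29 ± 0.258) and Spry2 (8.38 ± 0.640), and only Spry2 and Etv5 (7.501 ± 0.270) overlapped as neighbours. Dusp4 and Dusp6 stayed at the top and Etv5, Spry1 and Spry4 at the bottom, while Spred1 rose past Etv4, and Spry2 dropped below Dusp5 and Dusp1.

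The authors' deposited table, which lists genes past an adjusted p of 0.05, holds 6 of the 10 members and leaves out Spry1, Spry4, Spred1 and Etv5. In the authors' deposited table the log2 fold changes were -1.08 for Spry2, -0.84 for Dusp1, -0.71 for Etv4, -0.62 for Dusp5, 0.31 for Dusp4 and 0.18 for Dusp6.

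Relatives outside the 10 genes were read from the same fit, in which 48.3% of all tested genes were called (25.1% higher and 23.3% lower). Of 8 other MAP kinase phosphatase genes tested, the test called 1 higher and 5 lower and left 2 uncalled, and the median log2 difference was -0.49. The count higher was 2 without labelled replicate 3, with quantile normalization and in edgeR, and 0 without labelled replicate 1 and in DESeq2. The count lower ran from 3 (filter at a mean of 5 FPKM) to 6 (without labelled replicate 2). Dusp3, a small phosphatase of ERK and JNK, held 13.5, 13.0 and 14.1 FPKM in the controls and 5.83, 5.52 and 6.50 FPKM in the labelled ones (limma, adjusted p = 2.7e-06). Dusp10, which acts mainly on JNK and p38, went from 14.6 to 6.88 FPKM (limma, adjusted p = 2.8e-06) and Dusp16, a JNK phosphatase, from 3.81 to 2.02 FPKM (limma, adjusted p = 4.3e-05). The 1 called higher was Dusp2, a nuclear phosphatase of immune cells, at 1.03 and 1.56 FPKM and 42 to 90 reads per library (limma, adjusted p = 0.0134). Its call was lost without labelled replicate 1 (limma, adjusted p = 0.0512) and in DESeq2 (adjusted p = 0.0504). Of the 2 uncalled genes, Dusp7 had a higher mean, 11.3 and 12.4 FPKM (limma, adjusted p = 0.0571), with overlapping ranges, and passed in 4 of 16 alternatives. Dusp9 had a lower mean, 4.28 and 3.75 FPKM (limma, adjusted p = 0.125). Both other tested SPRED genes were lower, Spred3 at 2.95 and 1.66 FPKM (limma, adjusted p = 0.00117) and Spred2 at 20.53 and 18.6 FPKM (limma, adjusted p = 0.0220). The Spred2 call was lost in limma without control replicate 1 (adjusted p = 0.0763) or 2 (0.0725) and without labelled replicate 2 (0.0687) or 3 (0.0632). Of 11 other ETS genes tested, 0 were higher, 4 were lower and 7 did not pass in limma (median log2 difference -0.02). Etv1, the remaining PEA3 group gene, held 5.61, 5.63 and 4.99 FPKM in the controls and 2.76, 2.93 and 2.64 FPKM in the labelled ones (limma, adjusted p = 1.8e-05), and Erf, an ETS repressor controlled by ERK, went from 23.2 to 18.9 FPKM (limma, adjusted p = 0.00059). Etv6 (6.33 and 5.11 FPKM) and Ets2 (27.1 and 24.0 FPKM) were the other 2.

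Genes above the feedback loop differed in kind. Of 19 listed ligands that activate ERK, 11 reached the mean of 1 FPKM needed for the test. Of these 11, 9 were lower and 2 higher, so all passed, with a median log2 difference of -0.41. The counts were 1 higher and 6 lower with the filter at a mean of 5 FPKM. They were 3 higher and 10 lower in edgeR, in DESeq2 and in limma without a filter. Over all tested genes 25.1% were called higher and 23.3% lower. Fgf7, a fibroblast growth factor, went from 50.7 ± 2.16 to 27.1 ± 0.971 FPKM (limma, adjusted p = 1.2e-06) and Fgf10 from 6.59 to 3.53 FPKM (limma, adjusted p = 3.9e-06), while Vegfa rose from 59.7 to 70.4 FPKM (limma, adjusted p = 9.0e-05) and the EGF family ligand Btc from 2.39 to 3.0 FPKM (limma, adjusted p = 0.00845). Of 8 tested receptor tyrosine kinases 4 were lower, 1 was higher and 3 did not pass (median -0.12), while edgeR and DESeq2 on whole reads, which also took in receptors under 1 FPKM, each called 7 lower. Pdgfrb rose from 12.1 to 18.2 FPKM, and Pdgfra (4.35 and 2.94 FPKM), the hepatocyte growth factor receptor Met (21.4 and 17.2 FPKM) and Fgfr1 (23.5 and 21.7 FPKM) fell (limma, adjusted p from 6.8e-06 to 0.0146). Pdgfra is also on the fibroblast marker list above.

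The cascade from receptor adaptors to ERK moved little in size. Of 23 tested genes the test called 6 higher and 7 lower and left 10 uncalled. That is 56.5% called, beside 48.3% of all tested genes. The count lower was 4 without control replicate 1, and the count higher was 3 without labelled replicate 2. The median log2 difference was -0.05. Rps6ka3, a kinase activated by ERK, was lower at 16.7 and 13.1 FPKM (limma, adjusted p = 0.00014). Rps6ka2, of the same kinase family (15.9 and 18.3 FPKM), and the MEK gene Map2k2 (33.4 and 38.3 FPKM) were higher (limma, adjusted p = 0.0021 and 0.00691). These are mRNA levels, and the phosphorylation of ERK was not measured.

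Of 11 tested genes for other restraints on the pathway, 4 were called lower, 2 higher and 5 neither (median log2 difference -0.10). That is 54.5% called, beside 48.3% of all tested genes. Errfi1, an inducible inhibitor of the EGF receptor, went from 81.4 ± 1.66 to 52.1 ± 1.06 FPKM (limma, adjusted p = 9.7e-07) and Lrig1, which promotes turnover of the same receptor family, from 18.8 to 11.5 FPKM (limma, adjusted p = 1.2e-05). Pea15a, which holds ERK in the cytoplasm, rose from 52.8 to 63.1 FPKM and Il17rd, the feedback inhibitor Sef, from 1.47 to 2.50 FPKM (limma, adjusted p = 0.00012 and 0.00034). Of 9 tested genes among other known ERK-induced genes, 3 were higher, 5 lower and 1 did not pass (median -0.17). Ier3 (79.6 and 30.1 FPKM) and Junb (101.3 and 50.2 FPKM) were the strongest falls by adjusted p, and the ephrin receptor genes Epha2 (56.9 and 74.3 FPKM) and Epha4 (1.28 and 3.11 FPKM) rose (limma, adjusted p from 2.9e-08 to 3.9e-05 for the 4). Over the 8 lists together, 83 genes were tested, of which 15 were higher, 40 lower and 28 did not pass. That is 66.3% called, beside 48.3% among all genes (25.1% higher and 23.3% lower). The lists were chosen with earlier results of these data known, so this share only describes them.

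**Figure D4:**
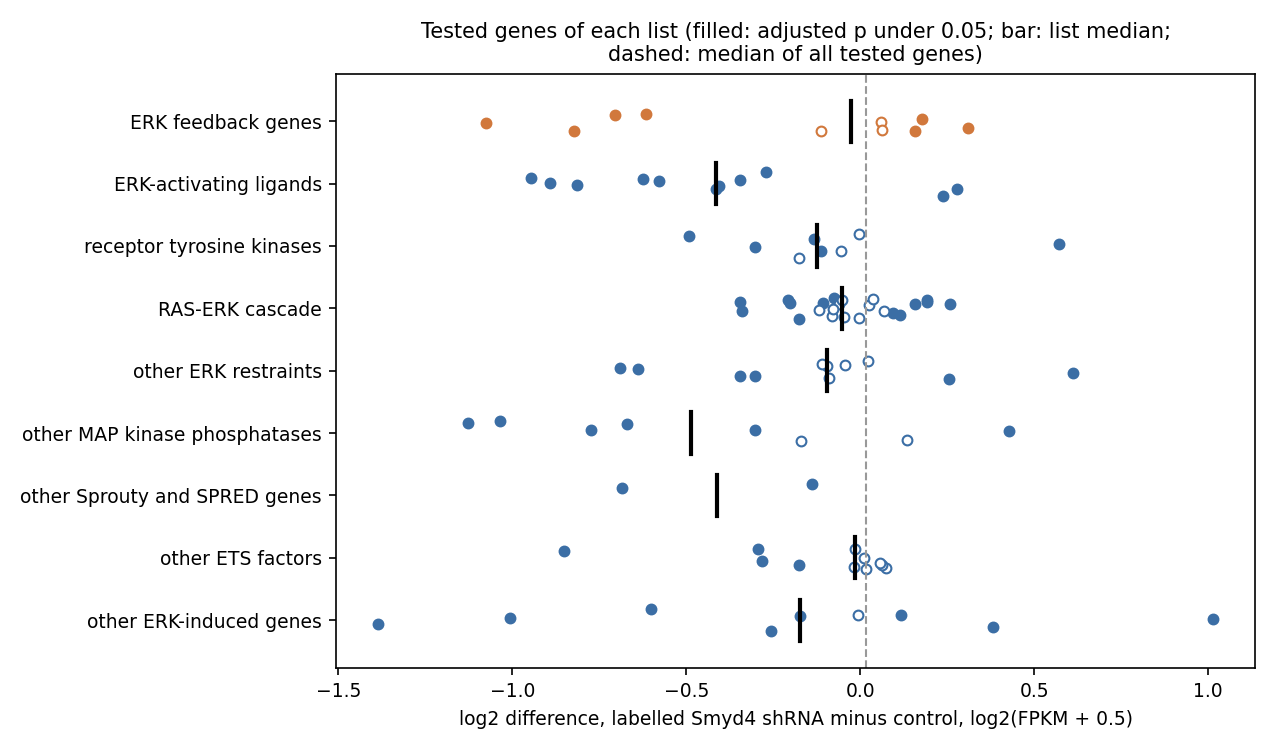
Log2 difference on the log2(FPKM + 0.5) scale, libraries labelled Smyd4 shRNA minus control, of each tested gene of the 10 feedback genes (orange) and of 8 pathway lists (blue); filled points have an adjusted p under 0.05, bars are list medians and the dashed line is the median of all tested genes, 0.02. Ligands and other phosphatases lie mostly to the left of the dashed line, with medians of -0.41 and -0.49, and the cascade genes lie close to it.

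Outside all lists, the tested genes whose log2 values followed those of Spry2 most closely over the 6 libraries were Furin (Pearson r = 0.9996; 22.1 and 12.9 FPKM), Socs2 (r = 0.9993; 4.6 and 2.82 FPKM) and Psap (r = 0.9987; 564 and 472 FPKM). For Dusp4, the member with the highest level, they were Crim1 (r = 0.9990; 12.1 and 18.0 FPKM), Igsf8 (r = 0.9988; 13.8 and 18.4 FPKM) and Arf6 (r = 0.9987; 76.1 and 98.4 FPKM). The 6 points share the split into 2 groups, so r exceeded 0.95 for 1414 genes with Spry2 and for 1158 with Dusp4.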

How the data were processed

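Values were FPKM per gene and library as deposited by the authors, with groups and replicate numbers taken from the sample titles. Per the submitters' processing notes, tools included TopHat2 2.0.9 and Bowtie2 2.0.6 on GRCm38; their counter, annotation and test (not given in the sources used here) remain unknown. The authors' deposited table of 5616 called genes holds a normalized signal (reads over a library's size factor), log2 fold changes, p-values and gene lengths. From these values and gene lengths, whole reads were recovered for all 22246 genes (100% of values within 0.01 of a whole number). For 13309 genes, Spry1, Spred1 and Etv5 among them, the length came from a gene annotation, only where that gave whole reads. For 3321 genes of unknown length, Spry4 among them, the reads are the smallest fitting number. The 100% is thus a check only for the 5616 genes with a deposited length. Symbols matched 22134 identifiers.

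Genes averaging 1 FPKM or more over the 6 libraries entered the test. Their log2(FPKM + 0.5) values were compared between groups in limma 3.58.1 (R 4.3.3, empirical Bayes with trend), with Benjamini-Hochberg adjustment at 0.05 over all tested genes. This scale understates changes of low genes. edgeR 4.0.16 and DESeq2 1.42.0 on the recovered reads were added after seeing the data. The code was tested on simulated data. The members, lists and alternatives were chosen with earlier results of these data known. All members are named. From each list, up to 4 called genes with the smallest adjusted p were named, up to 2 per direction first, and the 3 genes most like Spry2 (largest difference) and Dusp4 (highest level) by Pearson r. Some results of the cascade list are not reported here.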

Additional observations from a re-analysis of the deposited data

How the results depend on the processing

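Every member kept the direction of its difference in each alternative that tested it, 16 for all but Spry1 and Spry4, which had 15 because the filter at a mean of 5 FPKM removed them. Spry2, Dusp1, Etv4, Dusp5, Dusp4 and Dusp6 stayed past the threshold in each of the 16, with adjusted p (limma, edgeR or DESeq2) of at most 0.00401. The counts of members called were 2 or 3 higher and 4 or 5 lower. Leaving out 1 library at a time gave 4536 to 4993 called genes in limma, against 5474, and 6824 were called by edgeR and 5565 by DESeq2. Same-numbered libraries of the 2 groups did not visibly deviate together (r = -0.03, 0.02 and 0.01 across genes). That does not settle whether the numbers pair libraries, since a small shared effect could go unseen. With the replicate block, limma called 5141 genes, 2 members higher and 4 lower, and Spry1 had an adjusted p of 0.0613. Median-of-ratios scaling of the FPKM columns left 5472 calls. Spry4 and Spry1 had the fewest recovered reads of the members, 182 to 310 per library, where those of Spry4 are a lower bound.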
